A study of Mus musculus with 33 samples.

Results

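Microglia sorted from the corpus callosum (CC), the large fibre tract between the hemispheres, were compared between postnatal day (P) 7 and P42. All 7 CC libraries of these ages were taken by region and age as labelled, 3 at P7 and 4 at P42, out of 33 RNA-seq libraries that also cover cortex (Cx), cerebellum (Cb) and P10. The 4 CC libraries at P10 were used to place levels between both ages, and the 14 P7 and P42 libraries of Cx and Cb to ask whether the change with age differed between regions. Every group consisted of untreated, perfused mice of both sexes, and cells were sorted as CD45+, CD11b+ and Gr-. The study kept wildtype C57BL/6J mice and Cx3cr1 GFP/WT mice, which carry a GFP reporter in 1 Cx3cr1 allele, and which of these were sorted is not given in the sources used here. In the CC, P7 held 2 male libraries and 1 female, and P10 and P42 each held 2 of either sex. That gate takes up microglia together with other CD11b+ macrophages of the brain, and a library reports the mean over all its sorted cells. The labels number the libraries of a group without saying that each came from another animal, and pooling of animals is not given in the sources used here, so that p-values measure the spread between these libraries, which may in part be technical.

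Microglia are the resident macrophages of the brain. They colonise it before birth, divide during the first postnatal weeks and then settle into a mature state with low turnover and a set of surveillance receptors and regulators commonly called homeostatic genes. In the early postnatal white matter, a group of amoeboid microglia with high Spp1, Gpnmb, Igf1, Itgax and Clec7a is known to gather in the callosum and cerebellar white matter while myelin is formed. The study addressed how microglia of white and grey matter mature over this period.

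Between 22761090 and 36254599 reads were assigned to genes in each of the 7 CC libraries. The P42 libraries held fewer genes with reads (14868 to 15883) than the P7 libraries (17688 to 18834) and a lower share of mitochondrial transcripts (0.45 to 0.62% against 0.75 to 1.21%). They also differed more among themselves. The root mean square difference of log2 counts-per-million (CPM) values between 2 libraries was 0.645 to 0.809 at P7, 1.22 to 1.804 at P42 and 1.68 to 2.13 across ages, so that the most distant P42 libraries (replicates 2 and 4) differed by more than the closest libraries of different ages. Genes with a mean log2 CPM between 1 and 3 had a median SD of 0.515 at P7 and 1.22 at P42, while for genes at 7 or above it was 0.109 and 0.176, so that well expressed genes carry the comparison with the least error. The part of this wider spread at P42 in the results was not tested.

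Marker genes of 12 cell types or states, fixed as lists, were summed in CPM. The microglial list (among others P2ry12 and Tmem119) summed to 31640 to 34637 CPM at P7 and 56135 to 67860 at P42, so that the label holds at both ages. The list of border macrophages, which sit in the meninges and around vessels and pass the same gate, summed to 505 to 656 CPM at P7, 168 to 279 at P10 and 5.48 to 50.1 at P42, and the mannose receptor gene Mrc1 made up most of it in each P7 library. Lymphocyte markers summed to 856 to 913 CPM at P7 and 497 to 581 CPM at P42, with Ighm and Cd79b as the highest genes. Of these 9 markers, 3 were at 0 in every P7 library and 4 in every P42 library, and of the 3 that were tested none was called. Markers of oligodendrocytes (139 to 192 against 209 to 243 CPM), astrocytes (55.2 to 71.1 against 184 to 232 CPM, mostly Slc1a3, with 2 of 7 markers at 0 in every P42 library) and of the response to enzymatic or mechanical dissociation (280 to 331 against 714 to 917 CPM) had higher sums at P42. Of the astrocyte markers only the glutamate transporter Slc1a3 (2.01 ± 0.16) rose, while Gfap, the astrocyte filament, fell from 3.59, 2.73 and 2.43 CPM to no read, at least 26.2-fold. The connexin Gja1 fell from a mean of 4.92 to 0.0868 CPM (adjusted p = 0.00641), a call lost without any 1 P7 library or P42 replicate 2, 3 or 4 (adjusted p = 0.0122 to 0.0204). For these 6 lists the ages did not overlap, and the two-sided exact permutation p was 0.0286 each, the smallest that 35 arrangements allow, or 0.0572 after Benjamini-Hochberg (BH) adjustment over 12 lists. Monocyte, neutrophil, red cell, neuron, endothelial and oligodendrocyte precursor markers gave exact p between 0.143 and 0.943.

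From P7 to P42, 1694 of 20917 tested genes changed at least 2-fold at an adjusted p of 0.01 or less in edgeR's quasi-likelihood test, which is 8.10% of all genes tested. Of these, 611 genes (2.92%) rose and 1083 (5.18%) fell, and the median log2 fold change over all tested genes was -0.08. In 1642 of the called genes (96.9%) all P42 libraries lay on one side of all P7 libraries, against 24.2% of all genes tested. Among called genes averaging 10 CPM or more, 714 fell and 511 rose. The genes that fell included genes of cell division and of lipid handling together with Spp1, Gpnmb and Igf1. The genes that rose included members of the homeostatic list, cathepsin S, cystatin C, members of the MHC class II list and, with the largest fold changes, genes with low levels at P7 such as Tgm2 and Il7r. The plot of changes by gene list shows each tested gene under its known function. For every list below, the shares of all tested genes to set beside its counts are 2.92% higher, 5.18% lower and 24.2% without overlap. In bulk libraries of sorted cells, fewer cells of a type and less RNA per cell cannot be told apart for any of these changes.

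**Figure D1:**
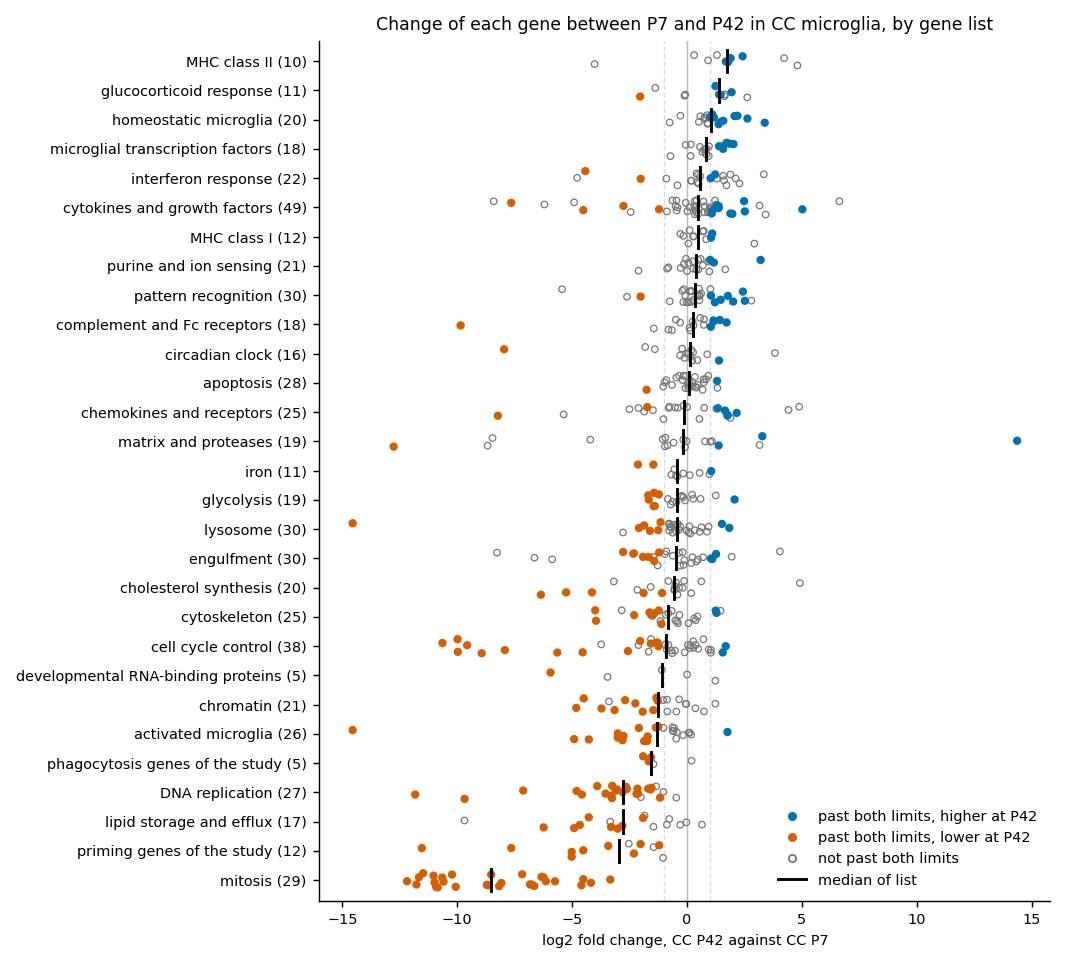
Log2 fold change between CC P7 (3 libraries) and CC P42 (4 libraries) of every tested gene in each list other than the stage genes (number of tested genes in brackets), where blue points are called higher at P42, orange points called lower, open points not called and black bars list medians. The mitosis genes lie farthest to the left with a median of -8.52, and the homeostatic list has its median at 1.04.

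The most complete change was in cell division. All 29 tested genes of the mitosis list fell, with a median log2 fold change of -8.52, or -8.18 with a gene at 0 set to its bound. Their summed level was 1808 to 2172 CPM at P7, 1139 to 1501 CPM at P10 and 13.5 to 32.0 CPM at P42. Per gene, the median P10 level was 65.6% of P7 and the median P42 level 0.315% of P7, and no member kept more than 9.9% of its P7 level at P42. Against P7, none of the 29 genes was called at P10 in edgeR's test (5 at an unadjusted p under 0.05), while all 29 were lower at P42 than at P10. The background of these comparisons, in which CC P10 libraries were set against P7 or P42, was 0.937% and 4.98% of all genes tested.

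Single genes showed the extent of the loss. Top2a (chromosome 11, 98992943 to 99024189, GRCm38), the topoisomerase that untangles replicated chromosomes, was at 142, 180 and 124 CPM at P7 and at 0.0717, 0.229, 0.0330 and 0 CPM at P42 (log2 fold change -10.91 ± 0.83 SE, adjusted p = 2.2e-11). Mki67, which coats mitotic chromosomes and serves as the standard proliferation marker, was at 54.2, 92.0 and 78.2 CPM at P7 and at 0, 0.915, 0.0330 and 0 CPM at P42 (-8.52 ± 0.72, adjusted p = 1.8e-10). In both genes every P42 library lay far below every P7 library, and the P10 mean was 139 CPM for Top2a and 51.1 CPM for Mki67. P42 replicate 2 had the highest adult level of both, and without it the change was -11.93 for Top2a and -12.28 for Mki67. Cdk1, the kinase that drives entry into mitosis, was at 174, 121 and 148 CPM at P7 and at 1.29, 4.76, 5.06 and 0 CPM at P42 (-5.75 ± 0.57, adjusted p = 4.8e-09), so that 3 of the 4 adult libraries still held some of its transcript. The spindle checkpoint kinase Ttk was at 18.5, 13.9 and 17.1 CPM at P7 and had no read in any P42 library, at least 148-fold lower against a floor of 3 counts per library. Genes with 1 to 3 reads over all P42 libraries are given as ratios with 95% counting intervals. The spindle motor Kif11 was 4760-fold lower (854 to 188000; 1 read), Kif23, a motor of the dividing midbody, 3900-fold lower (699 to 154000), and Foxm1, a transcription factor of the G2 and M phases, 842-fold lower (288 to 4080; 3 reads). E2f7, a repressor that ends the S-phase programme, was 1400-fold lower (251 to 55500; 1 read). Mki67, Top2a, Cdk1, Ube2c, Cdc20 and Prc1 were chosen for naming after their values were seen.

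As members that move together, the mitosis genes were looked up for promoter letters. Mitotic genes commonly carry the cell cycle homology element TTTGAA close to the start of transcription together with CCAAT boxes, and these exact letters were searched on both strands in 250 bases before the RefSeq start. Of 29 genes, 25 matched RefSeq with 27 windows. TTTGAA was present in 11 (40.7%) of them, against 5252 (16.0%) of 32851 windows of all genes, and CCAAT in 21 (77.8%) against 11120 (33.8%). Both stood in 10 windows (37.0%, against 5.55% of all windows), and in 6 windows (22.2%, against 1.45%) TTTGAA began within 30 bases before the start. These 6 promoters are shown as the 120 bases ending just before the RefSeq start, 5′ to 3′ in the direction of the gene, build GRCm38.p6. Capitals mark TTTGAA and CCAAT or their reverse complements TTCAAA and ATTGG. They lie at chr4:118437344-118437463 (Cdc20, minus strand), chr10:69352913-69353032 (Cdk1, minus), chr19:37376262-37376381 (Kif11, plus), chr7:80294356-80294475 (Prc1, plus), chr11:99024190-99024309 (Top2a, minus) and chr2:164769809-164769928 (Ube2c, plus).
Cdc20: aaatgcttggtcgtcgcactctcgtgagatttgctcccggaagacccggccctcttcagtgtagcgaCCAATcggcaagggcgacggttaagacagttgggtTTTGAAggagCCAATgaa
Cdk1: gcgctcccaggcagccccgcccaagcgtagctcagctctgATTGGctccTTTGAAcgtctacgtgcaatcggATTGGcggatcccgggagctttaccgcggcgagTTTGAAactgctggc
Kif11: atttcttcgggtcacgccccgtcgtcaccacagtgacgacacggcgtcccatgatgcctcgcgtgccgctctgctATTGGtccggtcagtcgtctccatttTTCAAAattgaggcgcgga
Prc1: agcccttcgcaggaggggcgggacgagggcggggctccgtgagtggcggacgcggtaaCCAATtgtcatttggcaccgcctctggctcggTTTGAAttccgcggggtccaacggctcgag
Top2a: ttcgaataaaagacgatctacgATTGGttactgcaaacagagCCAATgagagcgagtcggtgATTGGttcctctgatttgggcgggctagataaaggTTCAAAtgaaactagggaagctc
Ube2c: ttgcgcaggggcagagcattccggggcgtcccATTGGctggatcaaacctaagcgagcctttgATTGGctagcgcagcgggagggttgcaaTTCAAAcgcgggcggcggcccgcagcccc
The TTTGAA closest to the start began 18 bases before it in Cdc20, 15 in Cdk1, 19 in Kif11, 30 in Prc1, 23 in Top2a and 29 in Ube2c, and each stretch held at least 1 CCAAT, with 3 in Top2a. These are matches of letters and say nothing about which factor binds. The genes themselves fell. Ube2c, the ubiquitin-conjugating enzyme of the anaphase-promoting complex, was at 98.6, 59.8 and 59.9 CPM at P7 and at 0, 0.0915, 0 and 2.35 CPM at P42. Cdc20, an activator of that complex, was at 96.3, 71.1 and 57.3 CPM at P7 and at 0, 0.0915, 0.496 and 3.23 CPM at P42. Prc1, which bundles the microtubules of the central spindle, was at 59.9, 49.8 and 57.5 CPM at P7 and at 1.29, 0.0915, 0.0661 and 0.0672 CPM at P42. In each of the 3 genes a single P42 library stood above the others, and it was replicate 4 for Ube2c and Cdc20 and replicate 1 for Prc1. The log2 fold change was -6.83 for Ube2c, -6.24 for Cdc20 and -7.17 for Prc1 with all libraries and -11.31, -8.46 and -9.48 without that one.

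**Figure D2:**
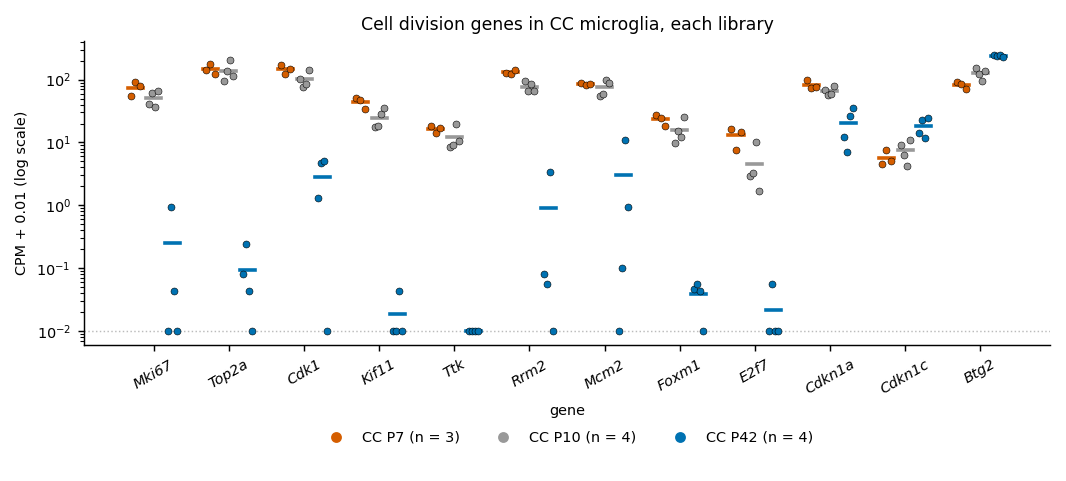
CPM plus 0.01 on a log axis for 12 cell division genes in each CC library at P7 (orange), P10 (grey) and P42 (blue), with horizontal bars at the group means and a dotted line at 0 CPM. P7 and P10 points lie together for the division genes while the P42 points lie lower. Some P42 points are at or near the dotted line and others well above it, as for Cdk1, Mcm2 and Cdkn1a. Cdkn1c and Btg2 are higher at P42.

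DNA replication followed with 21 of 27 tested genes lower, none higher and a median of -2.80. The median P10 level of its genes was 64.7% and the median P42 level 12.2% of P7, and again none of its 27 genes was called between P10 and P7 (8 at an unadjusted p under 0.05 in edgeR's test). Rrm2, the S-phase subunit of ribonucleotide reductase, was at 127, 121 and 142 CPM at P7 and at 0.0717, 0.0458, 3.40 and 0 CPM at P42 (-7.13 ± 0.76, adjusted p = 1.9e-08). Mcm2, a subunit of the replicative helicase, was at 89.3, 83.3 and 86.3 CPM at P7 and at 0, 0.0916, 11.0 and 0.941 CPM at P42 (-4.80 ± 0.73, adjusted p = 8.5e-06). P42 replicate 3 was the highest adult library in both genes and still lay below every P7 library. Without it the change was -11.61 for Rrm2 and -7.85 for Mcm2. Pole, the leading-strand polymerase, had no read at P42 and was at least 116-fold lower.

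Genes that control the cycle moved in both directions. Of 38 tested genes of cell cycle control, 13 fell, 2 rose and 23 did not pass, with a median of -0.91. The stress-induced inhibitor Cdkn1a (p21) was at 99.6, 74.9 and 75.0 CPM at P7 and at 12.0, 6.91, 26.4 and 35.1 CPM at P42 (-2.04 ± 0.33, adjusted p = 1.7e-05). In contrast, the inhibitor Cdkn1c (p57) was at 4.46, 7.45 and 5.02 CPM at P7 and at 13.9, 22.5, 12.0 and 24.2 CPM at P42 (1.68 ± 0.31, adjusted p = 0.00012). The antiproliferative gene Btg2 was at 91.5, 84.3 and 71.0 CPM at P7 and at 248, 235, 251 and 228 CPM at P42 (1.55 ± 0.13, adjusted p = 2e-10). None of these 3 genes overlapped between the ages. Trp53 (0.12) and cyclin D1 (Ccnd1, 0.71) did not pass both limits. Of 21 chromatin genes, 10 fell and none rose, among them Uhrf1 (-4.50), which guides maintenance methylation behind the fork, and Hmgb2 (-3.15), a chromatin architectural protein of dividing cells, while the Polycomb subunit Eed (0.73) and the de novo methyltransferase Dnmt3a (-0.86) were not called. Of 5 developmental RNA-binding proteins, only Igf2bp3, a fetal mRNA-binding protein, passed the test. It was at 68.9, 74.0 and 72.02 CPM at P7 and at 1.00, 0.229, 3.27 and 0.0336 CPM at P42 (-5.94 ± 0.55, adjusted p = 1e-09). Its P10 mean was 50.9 CPM, between both ages, and 18.7% of its exon bases are shared with Malsu1. Without P42 replicate 3 its change was -7.38, and without P42 replicate 2 that of Uhrf1 was -5.31.

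The second group to fall was the set of genes that the study uses to describe primed, amoeboid microglia. Of its 12 tested genes 9 fell and none rose, with a median of -2.98. The study presents them as known priming genes and shows them for these same samples, so that their direction is not taken here as independent evidence. By immunostaining, the study also reports protein of Spp1, Clec7a and Mrc1 in callosal microglia at P7 that was not detectable there at P10. In contrast to the cell division genes, 7 of the 12 priming genes were already lower at P10 than at P7, a comparison that called 0.937% of all genes tested. The members that fell to P42 stood at a median of 19.6% of their P7 level at P10, against 4.37% at P42. Spp1 (osteopontin, a secreted phosphoprotein, chromosome 5, 104435118 to 104441050) was at 6686, 7402 and 11499 CPM at P7 and at 12.4, 128, 15.6 and 14.8 CPM at P42 (-7.65 ± 0.81, adjusted p = 2e-08), with a P10 mean of 190 CPM. P42 replicate 2 stood above the other 3 adult libraries, and all 4 were far below P7. Without replicate 2 the change was -9.20. Of the exon bases of Spp1, 18.8% are shared with the predicted gene Gm42793. Gpnmb, a transmembrane glycoprotein of phagocytes with lysosomal stress, was at 775, 812 and 898 CPM at P7 and at 0.0717, 0.458, 0.364 and 0.235 CPM at P42 (-11.54 ± 1.15, adjusted p = 4.9e-09), with a P10 mean of 4.95 CPM. Thus Gpnmb was almost without reads in the adult libraries.

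Igf1, a growth factor for oligodendrocytes and neurons, was at 310, 402 and 405 CPM at P7 and at 7.34, 20.2, 18.9 and 18.7 CPM at P42 (-4.52 ± 0.49, adjusted p = 3e-08). Itgax (CD11c), an integrin chain that binds complement fragments, was at 92.3, 137 and 123 CPM at P7 and at 5.23, 22.1, 10.7 and 5.75 CPM at P42 (-3.43 ± 0.46, adjusted p = 1.1e-06). For these genes the P10 mean took different positions, with Igf1 (77.9 CPM) between both ages and Itgax (7.17 CPM) already within the adult range. Clec7a (dectin-1), a receptor for fungal glucans and a marker of reactive microglia, kept more of its level, at 312, 375 and 370 CPM at P7 and 51.5, 90.9, 59.8 and 145 CPM at P42 (-2.02 ± 0.26, adjusted p = 5.5e-07). Its P10 mean of 67.8 CPM was within the adult range as well. Anxa5, which binds exposed phosphatidylserine, had the same course, with 387, 372 and 467 CPM at P7, a mean of 80.3 CPM at P10 and 69.6, 68.8, 79.5 and 111 CPM at P42 (-2.31 ± 0.20, adjusted p = 3e-10). Lgals3 (galectin-3) was at 47.3, 43.0 and 106 CPM at P7 and at 20.6, 27.5, 20.7 and 58.2 CPM at P42 (-1.04, adjusted p = 0.28, and -0.44 without P7 replicate 3), and its groups overlapped. Gas7, a gene linked to actin and growth arrest, had fallen from a mean of 41.1 to 1.25 CPM (-5.02 ± 0.54, adjusted p = 2.4e-08). The scavenger receptor gene Cd36 (-1.46, adjusted p = 0.588) was low at both ages, with means of 9.39 and 3.41 CPM.

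**Figure D3:**
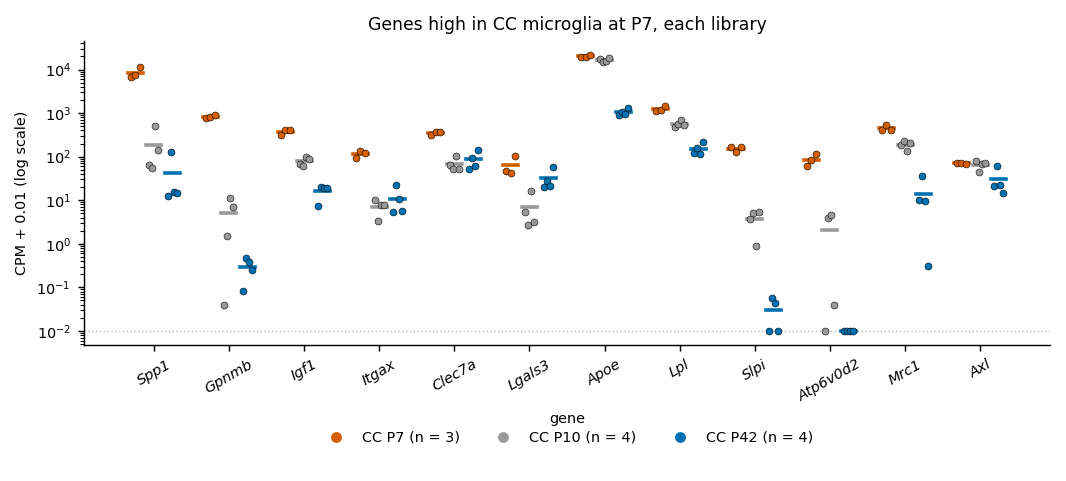
CPM plus 0.01 on a log axis for 12 genes with high levels in CC microglia at P7 (orange), in each library, with P10 in grey, P42 in blue and bars at the group means. At P10, Spp1, Gpnmb, Itgax and Atp6v0d2 are already far below P7, whereas Apoe is not, and Lgals3 overlaps between P7 and P42.

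Mrc1 (CD206), which microglia and border macrophages can both express, was at 411, 530 and 411 CPM at P7 and at 10.2, 35.7, 9.85 and 0.302 CPM at P42 (-5.02 ± 0.56, adjusted p = 4.9e-08), with a P10 mean of 188 CPM. That P10 mean is RNA of all sorted cells, whereas the study could not detect CD206 protein in callosal microglia at P10. Of the 12 markers of border macrophages 5 fell, Mrc1 included, and 1 was at 0 in every P7 library and 4 in every P42 library. The folate receptor Folr2 fell from 37.6, 35.9 and 42.4 CPM at P7 to 0, 0, 0 and 0.941 CPM at P42, and 63.1% of its exon bases are shared with Gm10602 on the other strand. Lyve1, a hyaluronan receptor, was at 0, 10.6 and 2.34 CPM at P7 and had no reads at P42. This change did not pass edgeR's test (adjusted p = 0.0216) but was called in DESeq2 (adjusted p = 0.00432). Lyve1 was thus without reads in 1 P7 library, in which Mrc1 stood at 411 CPM and Folr2 at 37.6 CPM. The platelet factor gene Pf4 (-3.59 ± 0.81, adjusted p = 0.0013) and the clathrin adaptor Dab2 (-4.74 ± 0.29, adjusted p = 2.5e-13), both also high in border macrophages, fell from means of 17.5 and 355 CPM to 1.46 and 13.3 CPM. The coagulation factor F13a1 was at a mean of 15.1 CPM at P7 and 2.62 CPM at P42, and its fitted change of -2.54 (adjusted p = 0.281) rested on P42 replicate 2 at 10.3 CPM. Without that library it was -8.25 (adjusted p = 0.00395), and the changes of Mrc1 and Pf4 were -6.04 and -4.70. In edgeR without P7 replicate 2 the change of F13a1 was -1.93 (adjusted p = 0.511). In limma-voom F13a1 was called (-6.51, adjusted p = 0.00074). The part of a changed number of border macrophages in these values was not tested.

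Further genes known from activated microglia in disease were taken as a list, of which 13 of 26 fell, 1 rose and the median was -1.30. Axl, a receptor for apoptotic cells, fell by 1.22 on the log2 scale (72.8, 70.5 and 67.1 CPM at P7 against 21.2, 62.1, 23.0 and 14.7 CPM at P42, adjusted p = 0.00934). The ages did not overlap, but the adjusted p was 0.0266 to 0.0389 when any library other than P42 replicate 2 was left out, and without P42 replicate 2 the change was -1.82 (adjusted p = 2.3e-05). The protease inhibitor Slpi fell from 163, 129 and 164 CPM to 0, 0.0458, 0.0330 and 0 CPM, a ratio of 8340 (95% counting interval 2310 to 68800, from 13847 and 2 reads). The osteoclast and macrophage subunit Atp6v0d2 of the proton pump was at 59.5, 83.3 and 112 CPM at P7, at a mean of 2.09 CPM at P10 and without a read at P42, at least 765-fold lower.

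Lipid handling changed at some of the most abundant transcripts of the cells. Of 17 genes of lipid storage and efflux, 8 fell, none rose and the median was -2.81. Apoe (chromosome 7, 19696109 to 19699188), which carries lipids between cells of the brain, was at 19572, 19271 and 22115 CPM at P7 and at 886, 1070, 935 and 1308 CPM at P42 (-4.28 ± 0.24, adjusted p = 3e-14). Its P10 mean of 16768 CPM was close to P7 and gave no call against it (-0.28, adjusted p = 0.566), whereas Spp1 (-5.49, adjusted p = 1.04e-05) and Gpnmb (-7.38, adjusted p = 2.62e-06) were called at P10 against P7. Lpl, the lipase that frees fatty acids from lipoproteins, was at 1117, 1155 and 1422 CPM at P7 and at 123, 155, 113 and 217 CPM at P42 (-3.02 ± 0.20, adjusted p = 1.26e-12). The fatty acid-binding proteins Fabp5 (-4.92) and Fabp3 (-4.67), the apolipoprotein Apoc1 (-6.24 ± 0.53) and the cholesterol exporter Abca1 (-1.92 ± 0.19) fell as well, and without P42 replicate 4 Fabp5 and Fabp3 were at -5.62 and -5.58. Of 20 genes of cholesterol synthesis and its regulation, 5 fell, none rose and the median was -0.55. They included squalene epoxidase (Sqle, -4.14, and -5.66 without P42 replicate 3) and the demethylase Cyp51 (-1.89). The regulator gene Srebf2 (-1.09) lost its call without P7 replicate 2 (-0.99) or 3 (-0.98) or P42 replicate 1 (-0.99) or 4 (-0.98), whereas the early pathway enzyme Hmgcs1 was at 59.5 CPM at P7 and 52.1 CPM at P42 (-0.19, adjusted p = 0.528).

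Among lysosomal genes both directions occurred. Of 30 genes, 6 fell, 2 rose and 22 did not pass, with a median of -0.46. Cathepsin B (Ctsb) was at 24981, 23738 and 24361 CPM at P7 and at 5916, 5933, 5480 and 5449 CPM at P42 (-2.10 ± 0.07, adjusted p = 1.9e-19), and cathepsin L (Ctsl) fell by 1.87 on the log2 scale. Cathepsin S (Ctss), which works outside acid compartments and trims the MHC class II invariant chain, was at 5796, 4793 and 4938 CPM at P7 and at 15025, 16873, 15108 and 12220 CPM at P42 (1.52 ± 0.10, adjusted p = 6.15e-13). Cathepsin H (Ctsh) rose in the same way from 461, 430 and 438 CPM to 1644, 1639, 1604 and 1449 CPM (1.84 ± 0.10, adjusted p = 2.1e-14). Cathepsin D (Ctsd, 0.07), legumain (Lgmn, 0.10) and cathepsin Z (Ctsz, -0.45) were not called, and Ctsd shares 34.4% of its exon bases with another gene. Lysozyme (Lyz2), a bactericidal enzyme of phagocytes, fell from 1925, 1994 and 2059 CPM to 219, 270, 229 and 272 CPM (-3.01 ± 0.14, adjusted p = 1.31e-15).

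Of 19 genes of glycolysis and sugar uptake, 6 fell, 1 rose and the median was -0.46. The enzymes Pkm (-1.69), Gpi1 (-1.67) and Tpi1 (-1.45) were among those that fell. The fructose transporter gene Slc2a5 was the member that rose, from a mean of 387 CPM at P7 to 697 CPM at P10 and 1619 CPM at P42 (2.06 ± 0.13, adjusted p = 7.9e-13). Among 25 cytoskeletal genes 8 fell and 2 rose, with a median of -0.81, and the microtubule destabiliser Stmn1 (-3.96), galectin-1 (Lgals1, -4.00) and cofilin (Cfl1, -1.64) fell, the actin bundler Fscn1 (1.25 ± 0.18) and the tubulin gene Tuba1a (1.28 ± 0.10) rose, and Actb (-0.33, adjusted p = 0.159) did not pass.

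Genes of the homeostatic list rose. Of its 20 tested members 11 rose, against 2.92% of all genes tested, and none fell, with a median of 1.04. In all 20 the libraries of both ages did not overlap, against 24.2% of all genes tested. Selplg (PSGL-1, the ligand of P-selectin, chromosome 5, 113818536 to 113832644) was at 952, 773 and 807 CPM at P7 and at 9540, 8827, 8802 and 7979 CPM at P42 (3.38 ± 0.10, adjusted p = 7.8e-20). Tmem119, a surface marker of mature microglia, was at 1159, 1016 and 910 CPM at P7 and at 7111, 5781, 6109 and 6358 CPM at P42 (2.62 ± 0.12, adjusted p = 2.02e-16). With P10 means of 3385 and 3157 CPM, both were higher at P10 than at P7 (log2 fold changes 2.00 and 1.62, adjusted p = 2.02e-14 and 3.64e-11) and rose further to P42. Cst3 (cystatin C, a secreted inhibitor of cysteine cathepsins) was at 12071, 10746 and 10596 CPM at P7 and at 54852, 52353, 48090 and 48174 CPM at P42 (2.19 ± 0.10, adjusted p = 4.53e-16). The purinergic receptor gene P2ry12, which directs processes to sites of ATP release, was at 5080, 4801 and 4362 CPM at P7 and at 12500, 10897, 10443 and 8758 CPM at P42 (1.17 ± 0.10, adjusted p = 1.59e-10), and its P10 mean of 10386 CPM was already in the adult range. The fractalkine receptor Cx3cr1 (0.74 ± 0.06), Csf1r (0.51) and Sparc (0.89) stayed below a 2-fold change. In limma-voom, P2ry12 (adjusted p = 0.047), Cst3 (0.976), Ctss (0.0116), Ctsb (0.232), Apoe (0.422) and Spp1 (0.11) lost their calls, although the libraries of both ages did not overlap in any of these 6 genes.

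On the RPKM scale, which divides CPM by the length of a gene's exons and lets genes be ranked within a library, the first at P7 were Tmsb4x (mean 13264), Apoe (9504), Cst3 (8798) and C1qb (7584), and Spp1 was the 7th (5176). At P42 Cst3 led with 40179, and C1qb (12544) and Ctss (10903) were also among the highest. Cst3 thus stood far above both in adult callosal microglia.

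**Figure D4:**
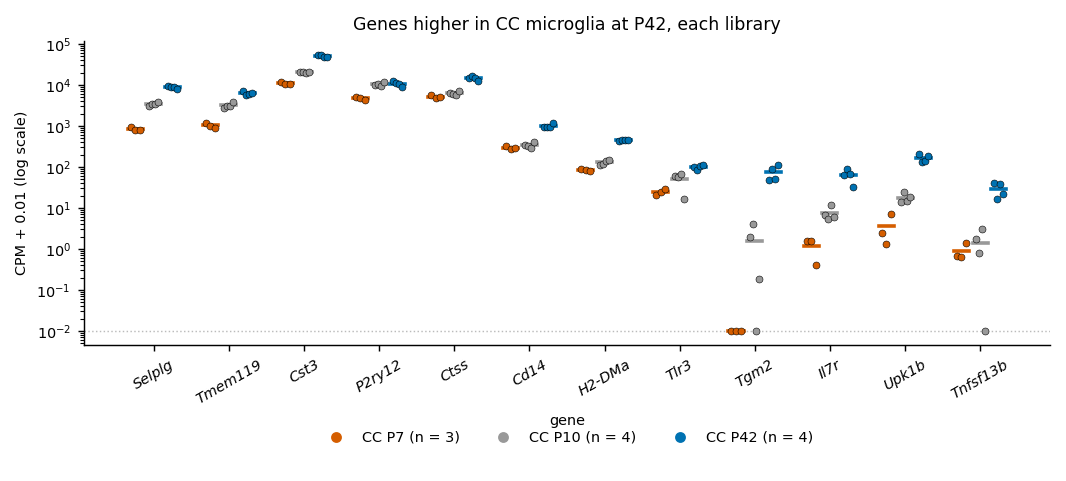
CPM plus 0.01 on a log axis for 12 genes called higher at P42 (blue) than at P7 (orange) in CC microglia, in each library, with P10 in grey and bars at the group means. All P42 points lie above all P7 points, and Tgm2 has no read at P7.

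Of 18 transcription factors of microglia 6 rose and none fell, with a median of 0.84. Sall3 (1.56 ± 0.17) and the TGF-beta feedback inhibitor Smad7 (1.71 ± 0.20) were among those that rose. Junb (2.02) and Jun (1.85) are at the same time members of the list of the response to dissociation, of which 4 of 14 markers rose and whose sum was 280 to 331 CPM at P7 and 714 to 917 CPM at P42, and the part of sample preparation in their rise was not tested. The lineage factors Spi1 (PU.1, 0.16, adjusted p = 0.305) and Mef2c (0.15, adjusted p = 0.182) were at means of 414 and 671 CPM at P7 and 463 and 746 CPM at P42. Among 11 genes of the glucocorticoid response 4 rose and 1 fell, and the receptor gene Nr3c1 (1.39) and its targets Sgk1 (1.94), Tsc22d3 (1.46 ± 0.16) and Errfi1 (1.23 ± 0.28, and adjusted p = 0.0112 in limma-voom) rose while Cdkn1a fell.

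Of 13 genes that mark developmental stages of microglia, 5 rose and 6 fell. Besides Jun and Selplg, the TGF-beta target Pmepa1 (1.63 ± 0.13) rose. The replication gene Mcm5 (-3.55) and Dab2 fell, Cd14, the co-receptor for bacterial lipopolysaccharide, rose from 315, 268 and 284 CPM to 924, 916, 957 and 1159 CPM (1.77), and the crystallin Crybb1 (-0.76 ± 0.10) stayed under a 2-fold change.

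Immune genes were grouped by function. Of 10 MHC class II genes 4 rose, none fell and the median was 1.73. These 4 were H2-DMa and H2-DMb1 (1.78), the chains of the peptide-loading chaperone, and H2-Oa (1.89) and H2-Ob (1.69), which are not loading chaperones. H2-DMa was at 88.6, 82.3 and 80.1 CPM at P7 and at 420, 444, 464 and 458 CPM at P42 (2.42 ± 0.12, adjusted p = 3.9e-15). The invariant chain Cd74 was at 17.8, 22.8 and 39.7 CPM at P7 and at 42.7, 101, 23.0 and 36.1 CPM at P42 (0.92, adjusted p = 0.0564), and the presenting chain H2-Ab1 (0.31) did not pass either. Thus these 4 genes rose without overlap while the ages overlapped for Cd74. Of 12 MHC class I genes 2 rose, with a median of 0.49. These were the classical chain H2-K1 (1.04 ± 0.11) and the peptide transporter subunit Tap2 (1.09), which fell just short of a 2-fold change (0.98) without P42 replicate 2, and the common light chain B2m was at 2695 and 2907 CPM (0.11, adjusted p = 0.497). Of 22 interferon response genes 2 rose and 2 fell (median 0.54). Ifitm2 (-4.43, 40.9% of exon bases shared with another gene) and Ifi27l2a (-2.02) fell, and the receptor transporter Rtp4 (1.22) and the signalling factor Irf9 (1.02) rose. Both calls were lost without single libraries. The change of Irf9 was 0.87 without P42 replicate 2 and 0.93 without P7 replicate 3, and the adjusted p of Rtp4 was 0.0103 without P42 replicate 2, 0.0121 without P7 replicate 1 and 0.0683 in limma-voom.

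Of 18 complement and Fc receptor genes 5 rose and 1 fell, with a median of 0.26. C1qa, a chain of the complement starter C1q, was at 4327, 3895 and 4108 CPM at P7 and at 8985, 9013, 9484 and 9183 CPM at P42 (1.16 ± 0.07, adjusted p = 2.57e-13), while C1qb (0.73) and C1qc (0.57) stayed under a 2-fold change. The receptors for the C5a fragment, C5ar1 (1.72 ± 0.13) and C5ar2 (1.43 ± 0.18), the integrin chain Itgb2 (1.15 ± 0.10) and the Fc receptor Fcgr1 (1.03 ± 0.11) rose as well, and properdin (Cfp), at 2.07, 5.27 and 2.48 CPM at P7, had no read at P42 and was at least 29.4-fold lower. Of 30 engulfment genes 3 rose and 6 fell (median -0.49). Gas6, the bridging ligand between apoptotic cells and TAM receptors such as Axl, was at 1008, 1134 and 1030 CPM at P7 and at 159, 124, 188 and 144 CPM at P42 (-2.78 ± 0.14, adjusted p = 3.05e-15), whereas the integrin chains Itgav (1.26) and Itgb5 (1.04) and the TAM receptor Mertk (1.10, and 0.999 without P42 replicate 4) rose and Trem2 (0.17) did not pass. Of the 5 tested phagocytosis genes chosen by the study on these samples 3 fell, namely Abca1, the lipoprotein receptor Scarb1 (-1.67) and the actin-severing gelsolin (Gsn, -1.57, adjusted p = 0.00711), and Grk6 (0.20) did not. The call for Gsn was lost when any library other than P42 replicate 2 was left out (adjusted p = 0.0177 to 0.0314).

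Of 25 tested chemokine genes and receptors 5 rose and 2 fell, with a median of -0.15. Cmklr1 (2.16), the receptor for chemerin, and the chemokine Cxcl16 (1.65 ± 0.19) rose, the neutrophil receptor gene Cxcr2 was 350-fold lower (95% counting interval 96.4 to 2900, from 581 and 2 reads), and Ccl6 fell from a mean of 1141 to 343 CPM (-1.73 ± 0.11, adjusted p = 4.2e-13). Ccl4 was at 48.2, 39.3 and 53.1 CPM at P7 and at 63.2, 224, 151 and 196 CPM at P42 (1.76 ± 0.43, adjusted p = 0.00285), and its adjusted p was 0.0102 without P42 replicate 2, 0.0111 without P7 replicate 1 and 0.017 without P7 replicate 2. The decoy receptor gene Ccrl2 (1.76 ± 0.45, adjusted p = 0.00422) also lost its call without any 1 P7 library or P42 replicate 3 (adjusted p = 0.0104 to 0.0239). Among 49 tested cytokines, growth factors and their receptors 10 rose and 4 fell (median 0.49). The platelet-derived growth factor genes Pdgfa (2.51 ± 0.33) and Pdgfb (1.88 ± 0.15), the first of which signals to oligodendrocyte precursors, rose from means of 5.26 and 26.7 CPM to 30.0 and 98.5 CPM, and Csf1 fell from 189 to 27.8 CPM (-2.77 ± 0.33, adjusted p = 1.4e-07). The others that fell were Igf1, Spp1 and the receptor chain Csf2ra (-1.22 ± 0.16). Of 30 pattern recognition genes 7 rose and 1 fell (median 0.36), with the flagellin receptor Tlr5 (2.52 ± 0.42), Tlr9 (2.43) and Tlr3 (2.00), which sense nucleic acids, among those that rose, and Tlr2 (0.07) not called. Of 21 purine receptors and ion channels 3 rose and none fell (median 0.40), namely the cation channel Trpm2 (3.20, and 3.90 without P7 replicate 3), P2ry12 and P2ry13 (1.00), which lay at the 2-fold limit and dropped under it without P42 replicate 1 (0.96), 2 (0.99) or 3 (0.98) or in limma-voom (0.99). Of 19 matrix genes and proteases 3 rose and 1 fell (median -0.17), and the membrane protease Mmp14 rose from 7.71 to 74.6 CPM (3.27 ± 0.26, adjusted p = 4.2e-11), beside Tgm2 and Serpinf1 (1.37 ± 0.15), while Slpi fell. Against 8.10% of all genes tested, 2 of 28 apoptosis genes were called (Birc3 higher at 1.30 and Pmaip1 lower at -1.76, median 0.08), 2 of 16 circadian clock genes (1 higher, 1 lower, median 0.12) and 3 of 11 genes of iron handling (1 higher, 2 lower, median -0.42). The repressor Bhlhe41 (1.39 ± 0.18) was the clock gene that rose, and Per2 fell from 0.702, 1.57 and 0.363 CPM to no read at P42, at least 7.91-fold, with its call lost without P7 replicate 2 or any 1 P42 library (adjusted p = 0.0134 to 0.0178). Transferrin (Trf, 1.05 ± 0.09) rose, with 63.5% of its exon bases shared with Gm20425 on the same strand, and the ferritin light chain Ftl1 (-2.14 ± 0.14, 26.5% of exon bases shared) and heme oxygenase Hmox1 (-1.47 ± 0.28) fell.

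By size alone, the 10 largest rises among called genes averaging 10 CPM or more were of genes with low levels at P7. Tgm2 (transglutaminase 2, which crosslinks proteins, chromosome 2, 158116402 to 158146436) had no read at P7 and was at 49.1, 89.5, 51.8 and 108 CPM at P42, at least 736-fold higher. Of its exon bases, 8.03% are shared with Rprd1b and 13.7% with Gm20412, both on the other strand. Il7r, the chain of the interleukin-7 receptor, was at 1.53, 1.51 and 0.391 CPM at P7 and at 64.3, 88.9, 65.7 and 33.0 CPM at P42 (5.80 ± 0.48, adjusted p = 1.4e-10). Upk1b, a tetraspanin of urothelial plaques, was at 2.44, 1.28 and 6.92 CPM at P7 and at 209, 133, 140 and 181 CPM at P42 (5.53 ± 0.45, adjusted p = 6.98e-11). In each of these genes all adult libraries were far above P7. Tnfsf13b (BAFF, a survival factor of B cells) was at 0.661, 0.610 and 1.40 CPM at P7 and at 39.8, 16.9, 38.1 and 21.6 CPM at P42 (5.01 ± 0.77, adjusted p = 9.4e-06). Thrsp, a regulator of lipid synthesis, rose from 2.96 to 79.2 CPM (4.75 ± 0.31) and the adhesion phosphatase Ptprm from 2.28 to 40.9 CPM (4.16 ± 0.36). Csmd3 (4.50), Lrba (3.85), Jam3 (3.75) and Chst8 (4.60) completed the 10, and the call for Chst8 was lost without P7 replicate 1 (adjusted p = 0.0306) or P7 replicate 2 (0.0213). Without P7 replicate 3 the change was 7.85 for Chst8 and 6.55 for Upk1b, and without P7 replicate 2 it was 4.79 for Ptprm. The P10 means placed Thrsp (12.2 CPM), Ptprm (8.35 CPM) and Lrba (18.1 CPM) between both ages, and Tnfsf13b (1.40 CPM), Csmd3 (2.98 CPM) and Jam3 (1.69 CPM) still near P7. The 10 largest falls by fitted change were Atp6v0d2, Slpi and 8 genes of chromosome segregation and division. For genes with so few reads at P42 the fitted change depends on the prior count, so that this choice is no ranking by size, and Kif23 with a ratio of 3900 was not among them. Of these, Knstrn (at least 395-fold lower), Cep55 (at least 324-fold) and Spc24 (at least 267-fold) had no read at P42, and Kif11, Tpx2, Cdca3, Melk and Ckap2 had 1 or 2 reads in total, with ratios between 3600 and 4760.

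The P10 libraries were used to date the changes. Against P7, 196 genes differed at P10 (83 higher), and 1042 genes (393 higher) differed between P42 and P10, which is 0.937% and 4.98% of all genes tested. Both comparisons share CC libraries with the main one. Of the 714 genes that fell and averaged 10 CPM or more, 234 had all 4 P10 libraries between those of P7 and P42, and the median P10 and P42 levels were 70.0% and 36.5% of P7. Of the 511 genes that rose, 131 had all P10 libraries in between, with medians of 145.0% and 270.0% of P7. At P10 Mrc1 (-1.26, adjusted p = 0.16) gave no call against P7, and Itgax (0.60, adjusted p = 0.333), Clec7a (0.36, adjusted p = 0.327), Anxa5 (0.03, adjusted p = 0.971) and P2ry12 (0.04, adjusted p = 0.852) gave no call between P42 and P10.

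The change from P7 to P42 was then set against the same change in Cx and Cb by an interaction term, with the CC libraries shared by both tests. Against Cx the change differed in 111 genes (0.531% of genes tested), 35 of them with a higher and 76 with a lower value in CC, and 2888 genes had an unadjusted p under 0.05. This split was 54 higher and 58 lower with total counts only, 22 and 88 in limma-voom, 150 and 181 in DESeq2, 12 and 38 with only the groups compared and 24 and 46 without CC P7 replicate 3. Against Cb it differed in 27 genes (0.129%), 19 higher and 8 lower, with 2310 genes at an unadjusted p under 0.05. Here the balance turned in limma-voom (13 higher, 28 lower) and DESeq2 (97 and 111). The 8 lower genes became 4 and 3 without CC P7 replicates 2 and 3, and 20, 14, 21 and 15 without CC P42 replicates 1, 2, 3 and 4. They became 2 and 4 without Cb P7 replicates 1 and 2. The adult libraries also differed in the number of genes with reads, 14868 to 15883 in CC, 16445 to 17255 in Cx and 16972 to 18753 in Cb, and its part in these counts was not tested.

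The 3 genes with the largest difference towards a lower value in CC than in Cx all began at high callosal levels. They were chosen among genes averaging 10 CPM or more over the libraries compared, a mean they reached through CC at P7. Their high callosal start is thus part of the choice and no separate result. Gpnmb went from a mean of 828 to 0.282 CPM in CC and from 4.52 to 0.537 CPM in Cx (difference in log2 change -8.39 ± 1.59, adjusted p = 0.00226). Hpse, the enzyme that cleaves heparan sulfate, went from 215 to 0.242 CPM in CC and from 6.62 to 2.22 CPM in Cx (-8.17 ± 1.49, adjusted p = 0.00148). Itgax went from 118 to 10.9 CPM in CC and from 1.62 to 5.26 CPM in Cx (-5.13 ± 0.67, adjusted p = 1.46e-05). In all 3 genes both regions were low at P42 and CC was far above Cx at P7. In Cb the means went from 221 to 3.84 CPM for Gpnmb and from 75.3 to 2.64 CPM for Hpse. For Itgax they went from 32.3 to 12.8 CPM. Cb was thus also far above Cx at P7. In the other direction, the endothelial and lymphoid transcription factor gene Klf2 went from 16.8 to 24.7 CPM in CC and from 21.3 to 2.06 CPM in Cx (3.93 ± 0.40, adjusted p = 2.31e-07). The intermediate filament gene Nes (nestin) went from 29.8 to 13.5 CPM in CC and from 70.3 to 2.88 CPM in Cx (3.46 ± 0.69, adjusted p = 0.00374), and the Polycomb methyltransferase gene Ezh2 from 27.6 to 9.96 CPM in CC and from 56.2 to 4.03 CPM in Cx (2.33 ± 0.31, adjusted p = 1.91e-05). In Cb Klf2 went from 21.7 to 45.0 CPM, Nes from 44.5 to 9.61 CPM and Ezh2 from 29.7 to 4.21 CPM. The Nes call was lost without CC P7 replicate 1 (adjusted p = 0.0216), CC P7 replicate 3 (0.0152) or Cx P7 replicate 3 (0.0121), that of Gpnmb without Cx P42 replicate 1 (-6.28, adjusted p = 0.257) and that of Hpse without Cx P7 replicate 1 (0.0101). The difference was 4.07 for Nes without Cx P42 replicate 3, -9.03 for Gpnmb without Cx P7 replicate 1, -5.75 for Itgax without CC P42 replicate 2, and for Hpse -6.37 without Cx P42 replicate 1 and -9.80 without CC P42 replicate 4.

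Against Cb, Upk1b rose more in CC, from 3.55 to 166 CPM against 11.8 to 36.4 CPM (3.90 ± 0.52, adjusted p = 6.93e-05), and so did Il7r, from 1.14 to 63.0 CPM against 11.6 to 45.4 CPM (3.83 ± 0.56, adjusted p = 0.00022). Pecam1 (CD31), an adhesion molecule of endothelium and leukocytes, went from 16.4 to 32.6 CPM in CC and from 33.9 to 9.10 CPM in Cb (2.89 ± 0.48, adjusted p = 0.00123). In Cx the means went from 4.46 to 240 CPM for Upk1b, from 4.30 to 77.5 CPM for Il7r and from 24.6 to 48.2 CPM for Pecam1. Without CC P7 replicate 3 the difference of Upk1b was 4.90, and without CC P42 replicate 4 that of Racgap1 was -6.55. Racgap1, a regulator of cytokinesis, went from 114 to 0.155 CPM in CC and from 99.4 to 4.37 CPM in Cb (-4.91 ± 0.74, adjusted p = 0.000378). Dab2 went from 355 to 13.3 CPM in CC and from 184 to 30.1 CPM in Cb (-2.13 ± 0.38, adjusted p = 0.00286), and its adjusted p was 0.0136 without CC P7 replicate 3, 0.019 without Cb P7 replicate 1 and 0.0149 without Cb P7 replicate 2. Tgfbi, a matrix protein induced by TGF-beta, went from 62.2 to 55.4 CPM in CC and from 47.0 to 99.6 CPM in Cb (-1.25 ± 0.24, adjusted p = 0.00818). This last call was lost when any CC library other than P42 replicate 3 or any Cb library other than P42 replicate 1 was left out, with adjusted p between 0.0152 and 0.0506. In limma-voom the differences of Nes (adjusted p = 0.0102), Gpnmb (0.143), Hpse (0.14), Upk1b (0.0145), Il7r (0.071) and Pecam1 (0.0174) did not pass. With only the groups compared in edgeR, Nes (0.0955), Hpse (0.0323), Upk1b (0.012), Il7r (0.0181), Pecam1 (0.0326), Dab2 (0.0598) and Tgfbi (0.136) did not pass. In voom with a weight for each group, Gpnmb (0.22), Hpse (0.206), Il7r (0.0463), Pecam1 (0.0152), Racgap1 (0.0231), Dab2 (0.0403) and Tgfbi (0.0115) did not pass. The plot of regional levels shows these genes side by side.

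**Figure D5:**
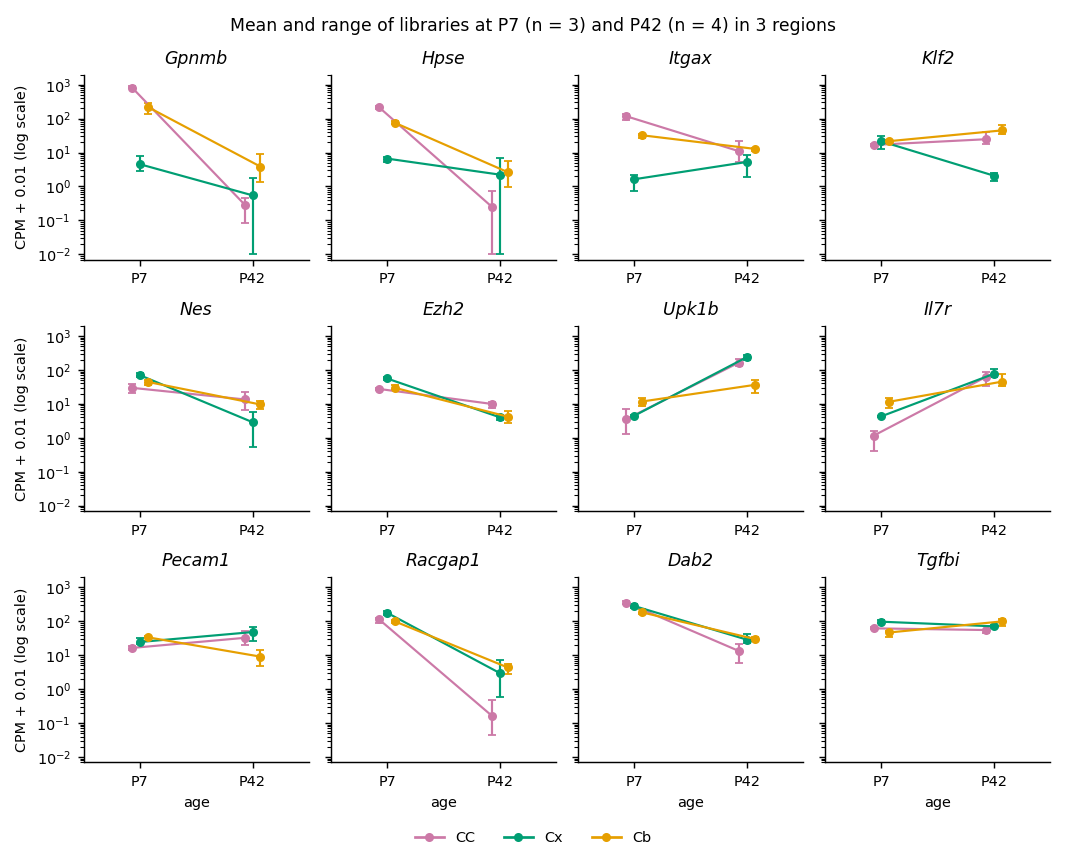
Mean CPM plus 0.01 on a log axis at P7 and P42 in CC, Cx and Cb for the 12 gene and region pairs named by the rule (3 each way per region), where bars span the lowest to the highest library (n = 3 at P7, n = 4 at P42). Gpnmb, Hpse and Itgax start high in CC and low in Cx, and Klf2 ends lower in Cx than in CC.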

How the data were processed

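RNA-seq had been done by the authors on microglia sorted from 3 brain regions at P7, P10 and P42. From 1 ng of RNA, cDNA was made with the SMARTer v4 kit and 11 PCR cycles, a kit that does not mark strand. Per the submitters' processing notes and the methods, reads were handled with CASAVA 1.8.2, aligned to GRCm38 with STAR 2.5.2b and counted with featureCounts 1.6.2, and reads with several hits or in overlapping genes were discarded, so that genes with near-identical copies or overlapping exons are understated. Cdkn1c (30.7%), Pdgfa (26.1%), Ccnd1 (23.4%), Ube2c (22.8%) and Bhlhe41 (19.0%) share exon bases with genes on the other strand. The strand setting of the counting is not given in the sources used here. The deposited values were whole-number counts per gene with a gene length, both used here.

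Of 48587 genes, 31375 had reads, and those with the lowest summed counts (at most 26 reads over 33 libraries) were removed. The 92 spike-in sequences took at most 0.000442% of the counts and were left out of library sizes. The remaining 20917 genes were fitted in R 4.3.3 with edgeR 4.0.16 (TMM factors, quasi-likelihood test, one fit over all 9 groups) and called where the BH adjusted p was at most 0.01 and the change at least 2-fold. The study used limma 3.38, and limma 3.58.1 with voom and DESeq2 1.42.0 were run as alternatives. Further alternatives were other scaling and filters, sex as a covariate, a replicate block, fits on fewer libraries, each CC P7 and P42 library left out, and, chosen after seeing the data, each Cx and Cb library of these ages left out and voom with a weight for each group. The P10 comparisons came from the same fit and were added after seeing the data. CPM were computed with TMM-scaled library sizes and RPKM from CPM and gene length. Errors are SE of the log2 fold change. Counting intervals are exact 95% intervals of a ratio of 2 Poisson counts, and a count of 0 was set to a floor of 3 counts per library. PCR copies are not told apart, so both cover counting error only. The test was checked on simulated counts before use.

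Genes were named by a rule, the 10 largest changes each way among called genes averaging 10 CPM or more, up to 4 called genes each way and 3 uncalled genes of each list averaging 5 CPM or more, and the 3 largest differences each way per region. Genes named beyond it were chosen after their values were seen, and some list members are counted but not reported here by name. The gene lists, markers and comparisons were chosen with earlier results of these data known. Promoter sequences were RefSeq's, build GRCm38.p6. Whether Xist or the summed Y genes had more reads matched the sex label in 33 of 33 libraries. Some male libraries held reads of both, among them Cb P7 replicate 1 (948 Xist and 4407 Y reads) and CC P10 replicate 3 (186 and 3594). The male CC libraries at P7 held 1 and 4 Xist reads. The source of the Xist reads in male libraries was not tested. No 2 libraries held identical counts.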

Additional observations from a re-analysis of the deposited data

Results flagged for a closer look

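Among 172 genes named or plotted, 19 had a single P42 library whose gap to its neighbour, as a share of the range of the 4 libraries, exceeded Dixon's 95% critical value. For normally distributed values chance alone gives about 1 such gene in 20. Several of the 19 genes were close to 0 CPM at P42, where that rate need not hold. The library apart was replicate 1 in 3 genes, replicate 2 in 5, replicate 3 in 4 and replicate 4 in 7. Replicate 4 was the highest for Cd14 (1159 CPM), Cdc20 (3.23 CPM), Eed (139.9 CPM), Folr2 (0.941 CPM), Racgap1 (0.470 CPM), Thrsp (107.5 CPM) and Ube2c (2.35 CPM). Replicate 2 was the highest for F13a1 (10.3 CPM), Gsn (28.3 CPM), Mki67 (0.915 CPM) and Spp1 (128.0 CPM) and the lowest for Gas7 (0.0458 CPM). Replicate 3 was the highest for Mcm2 (11.0 CPM), Rrm2 (3.40 CPM) and Sqle (3.27 CPM) and the lowest for Ezh2 (7.54 CPM). Replicate 1 was the highest for Itgb5 (3319 CPM) and Prc1 (1.29 CPM) and the lowest for Igf1 (7.34 CPM).

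The change from P7 to P42 differed between regions in the interaction test of edgeR for the 12 genes named by the rule. Against Cx the difference in log2 change was 3.93 for Klf2, 3.46 for Nes, 2.33 for Ezh2, -8.39 for Gpnmb, -8.17 for Hpse and -5.13 for Itgax. Against Cb it was 3.90 for Upk1b, 3.83 for Il7r, 2.89 for Pecam1, -4.91 for Racgap1, -2.13 for Dab2 and -1.25 for Tgfbi.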

How the results depend on the processing

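The count of 1694 called genes (611 higher, 1083 lower) was 582 (173 and 409) when tested against a fold change of 2, 779 (358 and 421) with only the groups compared, 896 (376 and 520) with the CC libraries of all ages and 2861 (1130 and 1731) with no fold limit. The count was 2097 (556 and 1541) in limma-voom, 2279 (951 and 1328) in DESeq2 and 2524 (855 and 1669) at an adjusted p limit of 0.05. With each CC library left out it was 1434 to 1672 (566 to 645 higher, 847 to 1032 lower). The 111 genes against Cx became 331 with DESeq2, 50 with only the groups compared, and 70 (without CC P7 replicate 3) to 133 with a library left out. The 27 genes against Cb became 41 with limma-voom, 208 with DESeq2, 14 with only the groups compared, and 17 (without Cb P7 replicate 1) to 45 (without CC P42 replicate 3) with a library left out. The cause of these shifts was not tested, other than that fits on fewer libraries have fewer residual degrees of freedom.

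Replicate numbers were not taken to pair libraries. P7 and P42 libraries come from different animals, and their same-numbered deviations correlated at -0.056, -0.051 and -0.03. Libraries of 1 age and number from different regions may share an animal, which the labels do not say, and correlated at -0.005 to 0.13 at P7 and -0.003 to 0.092 at P42, against -0.091 to 0.061 and -0.08 to 0.051 for other numbers. In 15 of 21 comparisons a library correlated best with its own number. With these libraries as 1 animal, limma-voom gave 109 genes against Cx and 39 against Cb. With a replicate block 1588 genes were called (558 higher), 104 against Cx and 27 against Cb, and Axl (adjusted p = 0.0139) and Chst8 (0.0115) lost their calls. Of 141 called genes named or plotted, 85 kept their call in all 20 alternatives that gave them an adjusted p, and none changed direction. Calls were lost for 41 of them against a fold change of 2, for 27 with only the groups compared, for 22 with the CC libraries of all ages, for 9 in limma-voom, with and without libraries of 1 age and number taken as 1 animal, and for at most 8 under any other alternative. In limma-voom the fitted trend fell from 1.3 to 0.00221 at the highest mean, which Cst3 and Ctsb reached.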
